A study of Mus musculus with 6 samples.

Results

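The Bcl2 family of apoptosis genes was followed in stem cell cultures differentiated towards definitive endoderm, with and without forced HOXA13. Markers of that cell type were present only in part. The members are 10 genes of the 24393 listed in the files, namely the effectors Bok, Bax and Bak1, the guardians Bcl2, Bcl2l1 and Mcl1, and the BH3-only genes Bid, Bad, Bbc3 and Bcl2l11. The list was chosen around Bok, which was selected on its higher level in HOXA13 than in CONTROL libraries, so its difference between the groups is given as a description without a test. The other 9 were taken by family membership. All 10 passed the filter on low counts, which left 13600 genes for testing.

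The cells were KH2 mouse embryonic stem cells, labelled as C57/BL/6. In targeted, hygromycin-resistant clones a human HOXA13 transgene with a FLAG tag is switched on by doxycycline. The sources used here do not say whether CONTROL cells carried this transgene. The stem cells were differentiated on M15 feeder cells, a mesoderm-derived line, in medium without LIF and with Activin-A, bFGF, CHIR and Noggin. In the HOXA13 group the gene was induced on day 4 with 1.25 µg/ml doxycycline, a CXCR4+/E-cadherin+ fraction was taken by sorting at day 6, and RNA was taken after a further day of culture with doxycycline. The treatment text of the samples is shared by both groups and lists the same doxycycline dose and day. Whether CONTROL cells also received it is not given separately in the sources used here. Each group had 3 libraries, described in the methods as biological replicates. Whether these came from separate clones is not given in the sources used here, so p-values measure the spread between these libraries only.

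Bcl2 family proteins decide whether the outer mitochondrial membrane is opened, the step that commits most cells to apoptosis. Effectors can form pores in that membrane, guardians bind and restrain them, and BH3-only proteins are stress sensors that block guardians or activate effectors directly. Pores release cytochrome c, which assembles with Apaf1 to activate caspase-9 and then the executioner caspases. Pluripotent stem cells are known to stand close to this threshold and to depend on Mcl1 and Bcl2l1. Bok is the least understood effector.

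The feature that joins the family is the BH3 region, the helix through which members bind each other. Its coding sequence is shown for all 10 members because effectors, guardians and BH3-only proteins all have this element. The sequences are from the GENCODE M1 transcripts on mm9, 5′ to 3′ on the coding strand, 42 bases each, and capitals mark the 18 bases that code from the conserved leucine to the conserved aspartate.
Bok (chr1:95583222-95585750, plus strand, exons 2 and 3): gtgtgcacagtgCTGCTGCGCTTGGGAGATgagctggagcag
Bax (chr7:52721364-52721405, minus strand, exon 3): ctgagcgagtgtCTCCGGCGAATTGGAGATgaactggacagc
Bak1 (chr17:27159473-27159514, minus strand, exon 4): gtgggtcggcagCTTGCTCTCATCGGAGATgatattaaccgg
Bcl2 (chr1:108609149-108609190, minus strand, exon 1): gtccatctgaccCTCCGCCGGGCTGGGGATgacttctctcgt
Bcl2l1 (chr2:152655430-152655471, minus strand, exon 2): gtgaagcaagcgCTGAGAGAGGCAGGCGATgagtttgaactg
Mcl1 (chr3:95463347-95463388, plus strand, exon 2): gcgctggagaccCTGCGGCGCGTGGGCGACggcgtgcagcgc
Bid (chr6:120847304-120847345, minus strand, exon 4): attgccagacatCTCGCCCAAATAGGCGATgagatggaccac
Bad (chr19:7025270-7025311, plus strand, exon 3): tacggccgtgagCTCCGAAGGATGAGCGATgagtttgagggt
Bbc3 (chr7:16899110-16899151, plus strand, exon 3): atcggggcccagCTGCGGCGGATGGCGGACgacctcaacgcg
Bcl2l11 (chr2:127972874-127972915, plus strand, exon 3): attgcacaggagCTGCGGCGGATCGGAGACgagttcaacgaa

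In each of the 10 proteins the pattern of a leucine, any 3 residues, a glycine, alanine or serine, and an aspartate was found exactly 1 time. In Bok the printed stretch is split by an intron between exons 2 and 3 of 5, whereas in the other 9 members it lies within 1 exon. The codon before that of aspartate is for glycine in 8 members, for serine in Bad and for alanine in Bbc3. Of the 18 core bases of Bok, 14 were the same in Mcl1, 13 in Bax and in Bcl2l11, and 12 in Bbc3. The count was 11 in Bak1, 10 in Bcl2 and in Bad, 9 in Bid and 8 in Bcl2l1, so these base counts did not sort by role. They include codon differences that leave the residue the same, and likeness of the proteins was not measured.

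The libraries held 12279884 to 17331638 counts, and 3 counts, the smallest level taken as shown by the depth, were 0.176 to 0.240 CPM. CPM is the count per 1000000 counts of the library, after TMM normalisation of its size. The mouse gene Hoxa13 had 0 to 10 counts in every library, and a row under a human gene identifier, which the files do not pair with a symbol, had 0 counts in each CONTROL library and 2497 to 7666 in HOXA13. CONTROL replicate 2 stood apart. Its Spearman correlation across genes was 0.908 and 0.931 with the other CONTROL libraries, which had 0.977 with each other. Summed mesenchymal markers came to 8855, 793 and 6171 CPM in replicates 1, 2 and 3 of CONTROL, compared with 336 to 1356 CPM under HOXA13. Of the 12, 6 were lower and none higher in HOXA13 at an unadjusted p under 0.05, beside 14.1% of all tested genes in either direction, and the lowest adjusted p was 0.186. The groups did not overlap in 1 of the 12, Thy1, which was higher in HOXA13, beside 20.0% of all tested genes in either direction. Summed pluripotency markers were 126, 1570 and 225 CPM in CONTROL and 542 to 984 CPM in HOXA13. The 10 epithelial markers summed to 2137, 7573 and 5334 CPM in CONTROL and to 9483 to 11320 CPM in HOXA13. Of these 10, 7 were higher at an unadjusted p under 0.05, beside the same 14.1%, and the lowest adjusted p was 0.102. Of 8 definitive endoderm markers, Cer1 was at 0 in every library and Gsc was too low to test. Sox17 was between 0.975 and 4.84 CPM, Foxa2 between 1.76 and 5.04 CPM, and the sort marker Cxcr4 between 2.25 and 11.3 CPM. Cdh1, which codes for the other sort marker E-cadherin, was at 192, 1292 and 702 CPM in CONTROL, compared with 1690 to 1893 CPM under HOXA13, without overlap (edgeR adjusted p = 0.351). Gata4 was at 13.1 to 31.9 CPM and Gata6 at 5.69 to 35.8 CPM, with overlapping groups. Eomes was at 49.0 to 111 CPM in CONTROL, compared with 24.4 to 41.9 CPM under HOXA13, which did not overlap (edgeR adjusted p = 0.141). The defining markers of the labelled cell type were therefore present in part, with Cer1 absent and Sox17 and Foxa2 low in both groups. The 8 mesonephric markers taken to mark the M15 feeders summed to 19.5 to 38.1 CPM in CONTROL, compared with 9.46 to 16.3 CPM under HOXA13. These sums did not overlap, and Pax2 and Pax8 were too low to test. Of the 6 tested feeder markers, 1 was lower at an unadjusted p under 0.05 (Hoxa11), a share near that 14.1%, the lowest adjusted p was 0.294, and none had a log2 fold change above 0. In such bulk samples fewer cells of a type and less RNA per cell cannot be told apart, and the part of cell composition in the values that follow was not tested.

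The effectors were examined first, since Bok is one of them. Bok (ENSMUSG00000026278.8, chr1:95582271-95592339, plus strand) was at 14.3, 22.5 and 19.1 CPM in replicates 1, 2 and 3 of CONTROL, compared with 126, 77.0 and 101 CPM in those of HOXA13. The lowest HOXA13 library was above the highest CONTROL library. These levels come from 201, 281 and 255 counts in CONTROL and 1643, 1315 and 1664 counts in HOXA13, well above the 3-count floor in every library. The means were 18.6 ± 4.13 and 101 ± 24.6 CPM (SD, n = 3), a ratio of 5.45, and the fitted log2 fold change was 2.45 (SE 0.26). Of all tested genes, 1.93% had a larger absolute log2 fold change. Within the HOXA13 group the order of Bok was not that of the human identifier row, which had 192, 449 and 398 CPM in replicates 1, 2 and 3, lowest where Bok was highest. Nothing is read from this order, since it rests on 3 libraries. In the 3 CONTROL libraries Bok was highest in replicate 2, at 1.35 times the mean of the other 2.

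Bax, the main pore-forming effector, had 262, 311 and 310.3 CPM across the CONTROL libraries, compared with 273, 272 and 259 CPM under HOXA13. The groups overlapped, and the log2 fold change was -0.13 (SE 0.14, 95% interval -0.47 to 0.20, edgeR adjusted p = 0.748). The value for Bax was -0.235 without CONTROL replicate 1 and -0.11 without CONTROL replicate 2. Bak1, its partner with an overlapping function, had 106, 76.0 and 103 CPM across the CONTROL libraries, compared with 93.9, 82.2 and 90.5 CPM under HOXA13. Its groups overlapped as well, with a log2 fold change of -0.09 (SE 0.18, interval -0.51 to 0.32, edgeR adjusted p = 0.868), and -0.25 without CONTROL replicate 2 and -0.03 without CONTROL replicate 1. The intervals for Bax and Bak1 leave out any increase above 0.32 on the log2 scale. Bak1 lies over Ggnbp1 on the opposite strand, and since the strand option of the counting is not given in the sources used here, reads of such overlapping genes cannot be told apart.

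**Figure D1:**
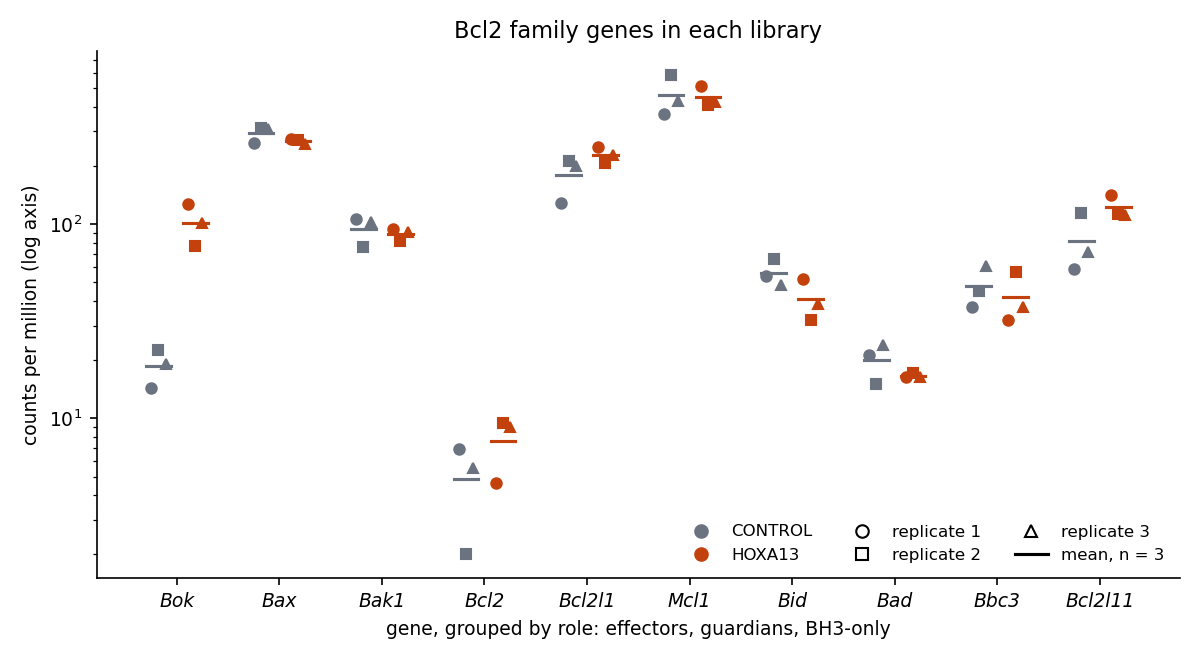
CPM on a log axis for the 10 members in each library, CONTROL in grey and HOXA13 in orange, with a marker shape for each replicate number and a line at the mean of 3. Only for Bok do the groups separate, with CONTROL at 14.3 to 22.5 and HOXA13 at 77.0 to 126.

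Levels of different genes were compared per kb of exon, which takes out gene length. On this scale Bax was the most abundant member in both groups, at 220 ± 21.0 CPM per kb in CONTROL and 200.3 ± 5.65 in HOXA13 (SD, n = 3). Bok was number 7 of the 10 members in CONTROL, at 13.0 ± 2.88 CPM per kb, and number 3 in HOXA13, at 70.8 ± 17.2. Its share of the summed level of the 3 effectors was 3.99%, 5.61% and 4.64% in replicates 1, 2 and 3 of CONTROL, compared with 26.6%, 18.5% and 23.3% in HOXA13. Bax held 78.4% to 83.1% of that sum in CONTROL and 61.6% to 69.8% in HOXA13, and Bak1 held 11.3% to 17.6% and 11.7% to 12.5%. The effector sum itself was 249.7, 280 and 288 CPM per kb in CONTROL and 331, 291 and 302 in HOXA13. With Bok left out, the HOXA13 libraries lay within or below the CONTROL range of this sum. These shares rest on the values that chose Bok and carry no test.

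**Figure D2:**
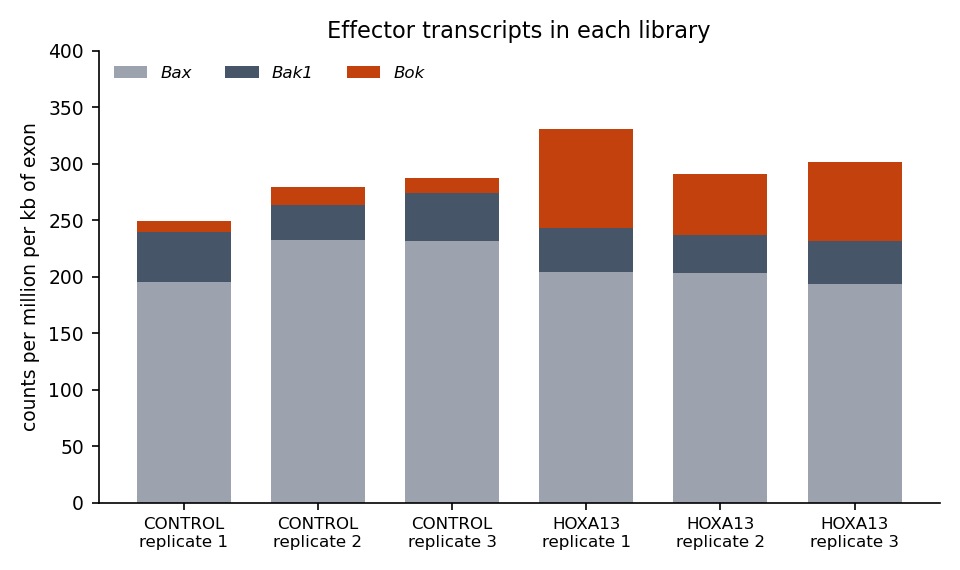
Stacked bars of Bax, Bak1 and Bok in CPM per kb of exon for each library, from 0. The Bok segment is 3.99% to 5.61% of the bar in CONTROL and 18.5% to 26.6% in HOXA13, while the Bax and Bak1 segments differ little.

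Among the guardians no member passed the test. Bcl2, the founding anti-apoptotic gene (chr1:108434755-108610851, minus strand), had 6.95, 2.00 and 5.55 CPM across the CONTROL libraries, compared with 4.61, 9.43 and 8.97 CPM under HOXA13. HOXA13 replicate 1 lay below CONTROL replicates 1 and 3, so the groups overlapped. These levels rest on 98, 25 and 74 counts in CONTROL, compared with 60, 161 and 148 under HOXA13, the fewest of any member. The log2 fold change of Bcl2 was 0.67 (SE 0.56, interval -0.63 to 1.96, edgeR adjusted p = 0.672), the widest interval of the 10. It was 0.28 without CONTROL replicate 2 and 1.00 without CONTROL replicate 1. CONTROL replicate 2 had 0.320 times the mean of the other 2 CONTROL libraries for this gene.

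Bcl2l1 codes for Bcl-xL, which restrains Bax and Bak1. It had 128, 211 and 199.6 CPM across the CONTROL libraries, compared with 250.2, 206 and 226 CPM under HOXA13, with a log2 fold change of 0.34 (SE 0.21, interval -0.15 to 0.83, edgeR adjusted p = 0.540). The HOXA13 libraries were in the upper part of the CONTROL range or above it, with CONTROL replicate 2 above the lowest of them. Without CONTROL replicate 1 its log2 fold change was 0.12. Mcl1, a short-lived guardian that stem cells need, had 369, 588 and 432 CPM across the CONTROL libraries, compared with 516, 411 and 425 CPM under HOXA13. Its group means were nearly equal, at 463 ± 113 and 451 ± 57.0 CPM (SD, n = 3), and its log2 fold change was -0.04 (SE 0.21, interval -0.52 to 0.44, edgeR adjusted p = 0.959). That value changed sign to 0.15 without CONTROL replicate 2 and was -0.20 without CONTROL replicate 1.

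Per kb of exon Mcl1 was the leading guardian, with 133 ± 32.4 CPM per kb in CONTROL and 129 ± 16.4 in HOXA13, second of all members in both groups. It held 74.3% to 79.0% of the summed guardian level in CONTROL and 71.3% to 73.4% in HOXA13, and Bcl2l1 held 20.2% to 25.3% and 26.2% to 27.9%. Bcl2 was the lowest member per kb in both groups, at 0.672 and 1.07 CPM per kb. In CONTROL the ranges of neighbouring members in the order of levels were separate for Bax and Mcl1, for Mcl1 and Bak1, and for Bad and Bcl2, and overlapped for every other neighbouring pair. In HOXA13 they overlapped for Bbc3 with Bcl2l11 and for Bcl2l11 with Bid, and the ranges of the other neighbours were separate.

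No BH3-only gene passed the test either, and their differences pointed both ways. Bcl2l11, which codes for Bim, an activator of effectors, had 58.7, 114 and 71.9 CPM across the CONTROL libraries, compared with 141, 113 and 111 CPM under HOXA13. CONTROL replicate 2 lay within the HOXA13 range, whereas replicates 1 and 3 lay below it. The log2 fold change was 0.58 (SE 0.26, interval -0.02 to 1.17), and its p was 0.0548 before and 0.368 after adjustment in edgeR. Without CONTROL replicate 2 it was 0.88 with an edgeR adjusted p of 0.0142, in a fit that called 14.2% of 14084 genes. With limma voom and sample quality weights it was 0.71 with an adjusted p of 0.0190, where 15.4% of genes were called. Without CONTROL replicate 1 it was 0.37 with an edgeR adjusted p of 0.754, so the adjusted p ran from 0.0142 to 0.754 over the 15 alternatives. CONTROL replicate 2 also held 1.75 times as much Bcl2l11 as the mean of the other CONTROL libraries and was the one low in mesenchymal markers.

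Bid, which links death receptors to mitochondria once caspase-8 has cleaved it, had 54.0, 66.0 and 48.5 CPM across the CONTROL libraries, compared with 52.3, 32.2 and 38.7 CPM under HOXA13. HOXA13 replicate 1 lay within the CONTROL range and the other 2 below it, with a log2 fold change of -0.45 (SE 0.24, interval -1.002 to 0.10, edgeR adjusted p = 0.452). Bad, a BH3-only gene controlled by growth factor signalling, had 21.3, 14.95 and 23.9 CPM across the CONTROL libraries, compared with 16.2, 17.2 and 16.3 CPM under HOXA13. CONTROL replicate 2 was the lowest of the 6 libraries, and the log2 fold change was -0.27 (SE 0.26, interval -0.88 to 0.33, edgeR adjusted p = 0.718). It was -0.46 without CONTROL replicate 2 and -0.15 without CONTROL replicate 3.

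Bbc3 codes for Puma, a target of p53. It had 37.3, 45.3 and 60.6 CPM across the CONTROL libraries, compared with 32.1, 56.7 and 37.5 CPM under HOXA13, with fully interleaved groups. The log2 fold change was -0.18 (SE 0.28, interval -0.83 to 0.47, edgeR adjusted p = 0.837). It changed sign to 0.0093 without CONTROL replicate 3 and was -0.48 without HOXA13 replicate 2. Bid overlaps Bcl2l13, and Bad overlaps Gpr137, on opposite strands, so their counts carry the same uncertainty as those of Bak1. Per kb of exon the BH3-only genes summed to 51.7 to 64.7 CPM per kb in CONTROL and 51.5 to 60.0 in HOXA13, overlapping ranges. Within that sum Bcl2l11 held 13.9% to 22.6% in CONTROL and 23.5% to 31.2% in HOXA13.

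Across the family, 0 of the 9 members other than Bok had an edgeR adjusted p under 0.05, and 0 of 9 had an unadjusted p under 0.05. Over all tested genes 42 of 13600 were called, or 0.309%, and 14.1% had an unadjusted p under 0.05. The groups overlapped in each of these 9 genes. Over all tested genes 20.0% had groups that did not overlap, 11.5% with HOXA13 higher and 8.52% with HOXA13 lower. Counts by the other tools were 0 of 9 with DESeq2, which called 4.09% of all genes, and 1 of 9, Bcl2l11, with limma voom, which called 15.4%. The log2 fold changes of the 9 ran from -0.45 to 0.67, and 3 of them were above 0.

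**Figure D3:**
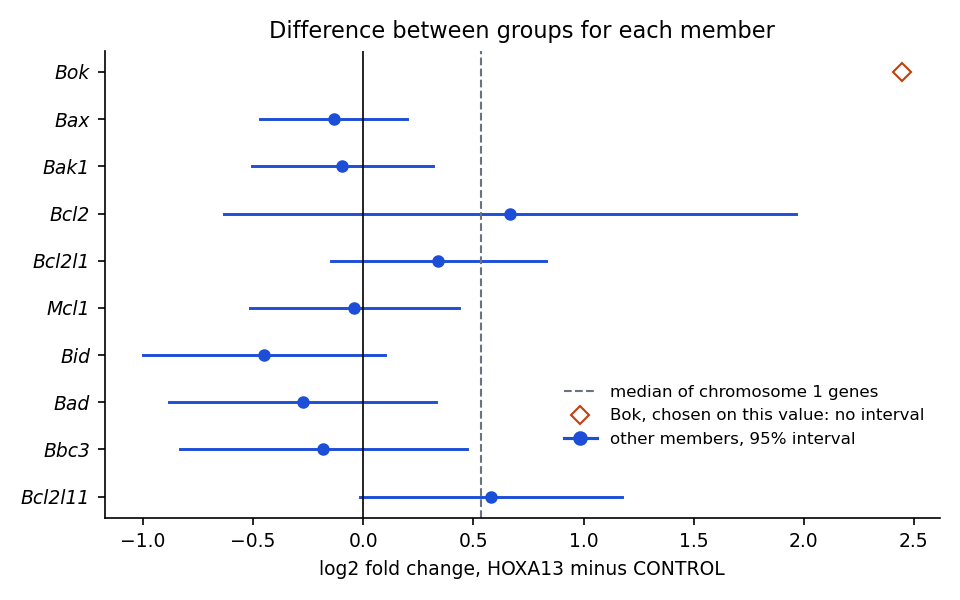
Log2 fold change (HOXA13 minus CONTROL) of each member, with the 95% interval for the 9 members other than Bok and a dashed line at the chromosome 1 median of 0.53. All 9 intervals include 0, and Bok at 2.45 is drawn without an interval because it was chosen on this value.

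Bok and Bcl2 both lie on chromosome 1, whose genes as a whole had higher counts in HOXA13. Among its 470 genes whose mean was 16 CPM or more, the median log2 fold change was 0.53, and 92.1% were above 0. The corresponding values were -0.02 and 47.5% for the 7423 genes of other chromosomes. Those genes were pooled, so these values do not show whether another single chromosome was shifted. Bok was 1.91 above the chromosome 1 median on the log2 scale, and 6 of the 470 genes were above Bok. Bcl2 was 0.13 above that median, and 35.5% of the 470 genes were above Bcl2. Its own mean of 6.25 CPM was below the limit of 16 CPM, so Bcl2 was not among the 470. When each chromosome was given its own offset, the log2 fold change of Bok was 1.86 and that of Bcl2 was 0.10. By library, the median chromosome 1 gene deviated from its mean over the 6 libraries by -0.31, -0.33 and -0.22 in CONTROL and by 0.31, 0.26 and 0.31 in HOXA13. Less that shift, Bok deviated by -1.27, -0.59 and -0.93 in CONTROL and by 1.25, 0.59 and 0.93 in HOXA13. These are the values that chose Bok, less the shift, and nothing is read from their separation. What lies behind the chromosome 1 shift was not tested.

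The genes nearest to each of the pair were then read, 5 tested genes on either side. The 10 neighbours of Bok, whose lower coordinates span 482 kb, had log2 fold changes from 0.25 (Sept2) to 1.00 (Farp2) with a median of 0.64. All 10 were above 0 and 7 did not overlap between the groups, beside 11.5% of all tested genes and 44.0% of the 736 on chromosome 1 that were higher without overlap, while the lowest edgeR adjusted p was 0.121 (Ing5). Thap4, whose lower coordinate is 19.7 kb beyond that of Bok, had mean levels of 49.8 CPM across the CONTROL libraries, compared with 76.7 CPM under HOXA13, with a log2 fold change of 0.63 (SE 0.18, edgeR adjusted p = 0.174). Stk25, on the other side at -63.8 kb by the same measure, had 141 and 187 CPM, and Ing5 had 51.4 and 99.4 CPM. Among these 11 genes Bok, chosen on this value, had the highest log2 fold change, and the next was 1.00.

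The 10 neighbours of Bcl2, a sparser region whose lower coordinates span 1990 kb, included 3 with low levels and wide errors. Tnfrsf11a had a mean of 0.849 CPM (SE of the log2 fold change 1.01), Serpinb5 1.075 CPM and Serpinb2 5.00 CPM (SE 1.41). The log2 fold changes of the 10 ran from -0.59 for Serpinb2 to 1.97 for Serpinb7, with a median of 0.40, and 8 were above 0. In 3 of them, Pign, Vps4b and Serpinb7, the groups did not overlap, beside the same 11.5% and 44.0%, and the lowest edgeR adjusted p was 0.146 (Serpinb7). Vps4b had mean levels of 116 CPM across the CONTROL libraries, compared with 177 CPM under HOXA13, with a log2 fold change of 0.60 and an edgeR adjusted p of 0.185, and Zcchc2 had 59.3 and 59.5 CPM. Bcl2 at 0.67 was below Serpinb5 (1.83, SE 1.37) and Serpinb7 (1.97, SE 0.50) and above the other 8.

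**Figure D4:**
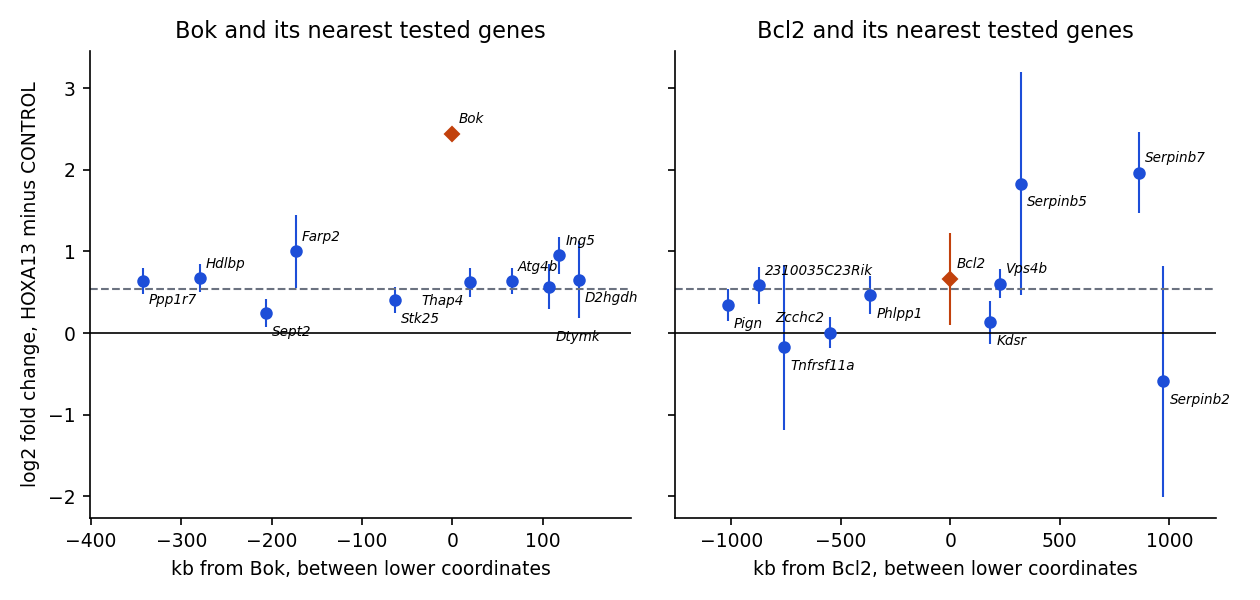
Log2 fold change of Bok, Bcl2 and the 5 nearest tested genes on each side, against the distance in kb between their lower coordinates in the annotation. Bars are standard errors (none for Bok), and the dashed line is the chromosome 1 median of 0.53. The neighbours of Bok, which was chosen on its own value, lie between 0.25 and 1.00, and those of Bcl2 between -0.59 and 1.97 with wide errors at low levels.

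The sequence before the Bok start was read because Bok was the member whose level differed most. The 250 bases before its RefSeq start (start sites on GRCm38.p6, matched 1 time to mm9 at chr1:95581902-95582151, plus strand) are printed with the GC box in capitals.
Bok promoter: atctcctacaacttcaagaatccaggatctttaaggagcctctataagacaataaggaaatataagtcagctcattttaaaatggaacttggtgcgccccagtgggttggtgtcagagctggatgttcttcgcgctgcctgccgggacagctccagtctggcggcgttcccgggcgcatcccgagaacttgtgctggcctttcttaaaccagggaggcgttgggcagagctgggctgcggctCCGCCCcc
The letters CAATAAA, which HOX13 proteins are known to bind, were searched on both strands. They were in none of the 16 promoters of the 10 members and in 4.2% of 32851 promoters of the same length. The GC box GGGCGG, on either strand, was in 11 of the 16 member promoters, which belong to 8 of the 10 genes, and in 32.7% of all promoters. The Bok window held 12 CpG pairs against a median of 6 over all promoters, and 55.2% G and C against 52.4%. A match is a description of the letters, and its absence says only that these letters are not in this window.

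The genes with a pattern most like that of Bok over the 6 libraries were, by Pearson correlation of log2 CPM, Fam134a (r = 0.998), Ep400 (0.997), Ppap2b (0.996), Arhgap44 (0.995) and Rrp15 (0.994), out of 10724 genes searched. Fam134a and Rrp15 are also on chromosome 1. Their log2 fold changes were 0.64 and 0.49, smaller than that of Bok. For Bcl2 they were Net1 (0.998), Akap13 (0.992), Osbp (0.991), Rassf1 (0.990) and Cish (0.990), none on chromosome 1. These correlations are descriptions over 6 libraries in 2 groups and carry no test.

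The rest of the pathway was covered with 4 further lists of 60 genes in all, of which 51 could be tested. Their median log2 fold change was 0.01, against -0.01 over all tested genes. None was called by edgeR at an adjusted p under 0.05, while 11 of 51 (21.6%) had an unadjusted p under 0.05, 8 higher and 3 lower, beside 14.1% of all tested genes. The groups did not overlap in 14 of 51, of which 10 were higher and 4 lower, beside 11.5% and 8.52% of all tested genes. DESeq2 called 2 of the 57 it could test, Casp8 and Ripk3, where it called 4.09% of all genes it was run on. Limma voom called 8 of 51 and 15.4% of all genes, shares close to each other. Without CONTROL replicate 2 edgeR called 6 of 52, a share no higher than the 14.2% of all genes in that fit, namely Casp8, Itpr3, Mdm4, Ripk3, Tnfrsf1a and Xiap, of which only Tnfrsf1a was lower in HOXA13.

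The death receptor arm, in which a ligand-bound receptor activates caspase-8 without mitochondria, had the highest median of the 4 lists, 0.46 over 10 tested genes. Of these, 2 lie on chromosome 1, Casp8 and Cflar, and the median of the other 8 was 0.20. Over the 10, 4 had groups that did not overlap, all higher in HOXA13, beside 11.5% of all tested genes. Casp8, the initiator caspase of this arm, had 27.2, 25.5 and 20.4 CPM across the CONTROL libraries, compared with 55.2, 56.8 and 69.7 CPM under HOXA13. The lowest HOXA13 library was well above the highest CONTROL library, and the log2 fold change was 1.31 (SE 0.21, edgeR adjusted p = 0.0566). Its adjusted p ran from 5.645e-05 to 0.425 over 15 alternatives, 5 of which called it. Casp8 lies on chromosome 1 too, and with an offset for each chromosome its log2 fold change was 0.73.

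Ripk3 and Mlkl, the kinase and the membrane-breaking effector of necroptosis, a form of cell death held back by caspase-8, were next in this list. Ripk3 had 19.9, 58.1 and 16.1 CPM across the CONTROL libraries, compared with 111, 64.8 and 79.2 CPM under HOXA13, with a log2 fold change of 1.44 (SE 0.48, edgeR adjusted p = 0.239). CONTROL replicate 2 lay close to the HOXA13 libraries, and without it the log2 fold change was 2.22 with an edgeR adjusted p of 0.00185 (0.00185 to 0.592 over the alternatives). Mlkl had 2.91, 2.80 and 1.43 CPM across the CONTROL libraries, compared with 8.61, 5.04 and 7.88 CPM under HOXA13, low in every library, with a log2 fold change of 1.59 (SE 0.52, edgeR adjusted p = 0.228). The receptors differed in direction. Fas had a log2 fold change of -1.55 (edgeR adjusted p = 0.447) and Tnfrsf1a of -1.01 (edgeR adjusted p = 0.267), both with overlapping groups, and Tnfrsf10b had 0.12.

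In the mitochondrial arm downstream of the effectors, all 17 genes were tested, with a median of -0.11. Xiap, an inhibitor of caspases, had 86.5, 115 and 108 CPM across the CONTROL libraries, compared with 142, 140.1 and 151 CPM under HOXA13, with a log2 fold change of 0.49 and an edgeR adjusted p of 0.232. Vdac1, a channel of the outer mitochondrial membrane, had 470 ± 59.2 CPM across the CONTROL libraries, compared with 348 ± 21.5 CPM under HOXA13 (SD, n = 3), and its log2 fold change was -0.43 (edgeR adjusted p = 0.270). Apaf1 and Casp9, which form the apoptosome with cytochrome c, had log2 fold changes of -0.29 and 0.02 with overlapping groups. Cycs, the cytochrome c gene, was listed at only 2.00 to 4.92 CPM. It has many near-identical pseudogene copies, so its count is uncertain.

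Among the regulators upstream of the family, 17 of 18 genes were tested, with a median of 0.03. Mdm4, a negative regulator of p53 on chromosome 1, had 78.1, 126 and 88.1 CPM across the CONTROL libraries, compared with 152, 158 and 157 CPM under HOXA13, a log2 fold change of 0.67 (SE 0.20, edgeR adjusted p = 0.186). It was 0.09 with an offset for each chromosome, and 0.89 without CONTROL replicate 2, with an edgeR adjusted p of 0.00647 (0.00427 to 0.897 over the alternatives). Trp53 and Mdm2 had -0.12 and -0.26. Huwe1, a ligase that degrades Mcl1, had 569 ± 43.7 CPM across the CONTROL libraries, compared with 727 ± 33.1 CPM under HOXA13 (SD, n = 3), with an edgeR adjusted p of 0.319. Foxo1, a transcription factor that acts on BH3-only genes, had 78.5 ± 11.5 and 105 ± 12.1 CPM (SD, n = 3), and its edgeR adjusted p was 0.337.

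In the remaining Bcl2 family genes, 7 of 14 could be tested, with a median of 0.04. Bcl2l2, which codes for the guardian Bcl-w, had 52.8, 65.7 and 74.0 CPM across the CONTROL libraries, compared with 78.5, 96.8 and 118 CPM under HOXA13, with a log2 fold change of 0.61 (SE 0.21, edgeR adjusted p = 0.256). It lies on chromosome 14, as does Ripk3, and with an offset for each chromosome its log2 fold change was 0.24. The values of both genes were lower with this offset, and whether chromosome 14 as a whole was shifted was not tested. The adjusted p of Bcl2l2 ran from 0.0358, with limma voom, to 0.750 over the alternatives. Hrk, a BH3-only gene, had 2.27, 4.64 and 1.35 CPM across the CONTROL libraries, compared with 1.23, 1.11 and 1.33 CPM under HOXA13, so the nearest libraries of the groups were almost equal. Its log2 fold change was -1.16 (edgeR adjusted p = 0.571), and that of Bcl2l12 was -0.28 (edgeR adjusted p = 0.734). Pmaip1, the BH3-only partner of Mcl1 known as Noxa, differed least of the 7, at 316 to 384 CPM in CONTROL and 343 to 387 CPM in HOXA13. Bcl2a1a, Bcl2a1c and Bcl2a1d had no count in any library. Over the 4 lists, the 3 tested genes on chromosome 1, Casp8, Cflar and Mdm4, stood at a median of 0.675 on the log2 scale, and the 48 on other chromosomes at 0.01.

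**Figure D5:**
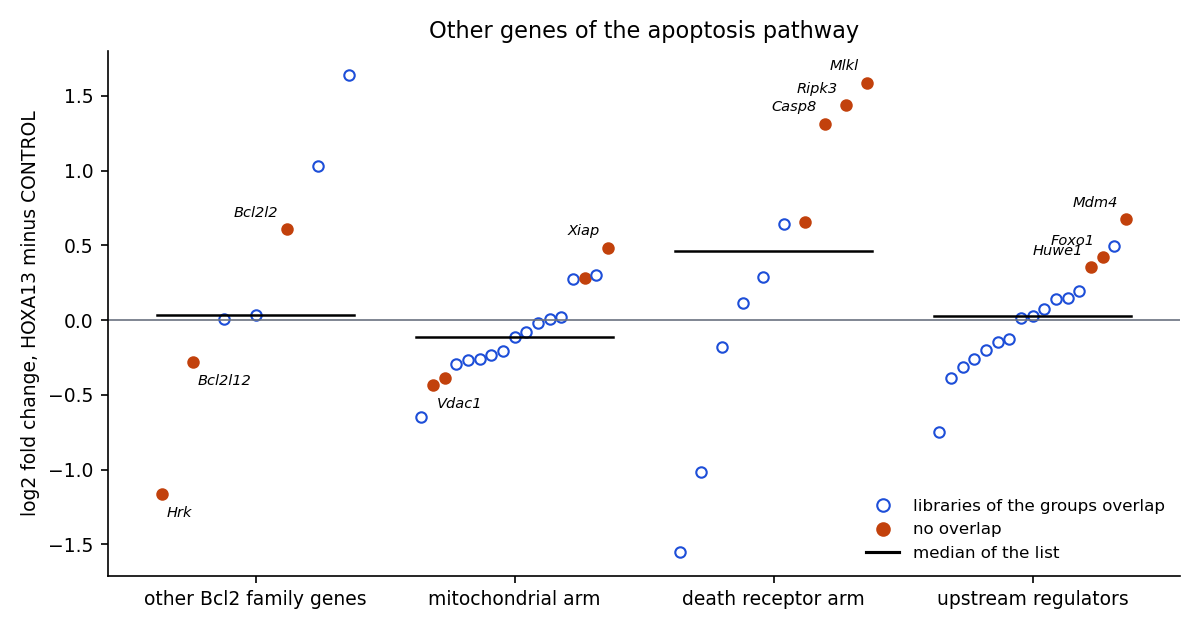
Log2 fold change (HOXA13 minus CONTROL) of the 51 tested genes in 4 further lists, 1 point a gene, sorted within a list, with a bar at the list median. Filled points have no overlap between the libraries of the groups, and the death receptor arm has the highest median at 0.46 (0.20 without its 2 genes on chromosome 1).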

How the data were processed

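The deposited files hold unnormalised read counts by gene, with a file for every library and symbols as row names apart from a few other identifiers. Per the methods, the authors made directional poly-A libraries, aligned the reads to mm9 with TopHat and counted them with HTSeq. The submitters' processing notes name TopHat2 2.0.14 and HTSeq 0.6.1p1. The annotation, the strand option and the handling of multi-mapped reads are not given in the sources used here.

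Groups were taken from the sample titles. Counts were filtered with filterByExpr (minimum count 10, minimum total 15), normalised by TMM and tested with the edgeR 4.0.16 quasi-likelihood test in R 4.3.3, with the group as the only term and Benjamini-Hochberg adjustment over 13600 genes (threshold 0.05). The steps were tested on simulated data. Alternatives were DESeq2 1.42.0, limma 3.58.1 voom with sample quality weights, the edgeR 4 method, RLE and upper quartile scaling, other filters, an offset for each chromosome, a replicate block and leaving out each library. The members and lists were chosen with earlier results of these data known. Named genes were all members. From each of the other lists they were any gene past the threshold and up to 3 with the smallest p whose groups do not overlap. The 5 genes most like Bok and Bcl2 (mean of at least 5 CPM) and 5 neighbours on each side were also named. Other genes named beside these were chosen after their values were seen, and some items are not reported here. Positions and exon lengths are from GENCODE M1 (mm9), which placed all 10 members and 91.5% of tested genes. Promoters are from RefSeq.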

Additional observations from a re-analysis of the deposited data

How the results depend on the processing

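The count of members other than Bok past the threshold was 0, and it was 1 (Bcl2l11) with limma voom and 0 to 1 when 1 library was left out, the 1 arising without CONTROL replicate 2. It was 0 under the other alternatives, the replicate block included. For the 4 apoptosis lists the count was 0, against 2 with DESeq2, 8 with limma voom (6 higher, 2 lower), 1 with the edgeR 4 method, 1 with no filter beyond 1 count, 0 with the replicate block and 0 to 6 when 1 library was left out, 6 without CONTROL replicate 2. Over all genes the count was 42, against 722 with DESeq2, 2101 with limma voom, 106 with the edgeR 4 method, 163 with no filter, 9 when genes needed a mean of 50 counts, 1 with an offset for each chromosome, 0 with the replicate block (1392 at an unadjusted p under 0.05) and 0 to 2006 when 1 library was left out. Their cause was not tested. The log2 fold change of Bok was 2.45, and it was 1.86 with an offset for each chromosome, 2.44 with the replicate block and 2.24 to 2.59 when 1 library was left out. Its excess over the chromosome 1 median, 1.91, was 1.73 to 2.06 when 1 library was left out and 1.88 with the replicate block. Mcl1 changed sign to 0.024 with limma voom and to 0.15 without CONTROL replicate 2 (-0.20 to 0.15 over the left-out libraries), and Bbc3 changed sign to 0.0093 without CONTROL replicate 3 (-0.48 to 0.0093). Over the left-out libraries Bcl2 ran from 0.28 to 1.00, Bcl2l1 from 0.12 to 0.45, Bax from -0.235 to -0.11, Bak1 from -0.25 to -0.03, Bid from -0.68 to -0.33 and Bad from -0.46 to -0.15, with no call in any of these fits, and Bcl2l11 from 0.37 to 0.88. Libraries with the same replicate number did not deviate together (correlations of -0.21, -0.27 and 0.10), so the numbers were not taken as pairs. Depth limits Bcl2 most, with 25 to 161 counts per library.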
